A study of Mus musculus with 6 samples.

Results

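The genes described here encode the proteins that carry out microRNA silencing: the Argonautes Ago1, Ago2, Ago3 and Ago4, the GW182 scaffold proteins Tnrc6a, Tnrc6b and Tnrc6c, the RNA helicases Mov10 and Ddx6, and Cnot1, the scaffold of the CCR4-NOT deadenylase. They were chosen by symbol, as all probe sets whose single gene symbol in the platform annotation is one of these 10 names. The rule found 33 of the 45101 probe sets on the array, for 9 of the 10 genes, among 18194 genes with such a probe set. Cnot1 had 0 probe sets of its own, since its 2 probe sets also carry the symbol Gm6158, and it has no value here. Of the 33, 28 had a mean log2 intensity of at least 4 over the arrays and were tested, and 5 were dimmer and were not.

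The comparison was between 3 arrays and 3 arrays, all from the mouse embryonic stem cell line 27H10 (so named in the series title, and 27H in the sample titles), which is Dicer -/- and so cannot cut microRNA precursors into mature microRNAs. The first group was transfected with synthetic mimics of the miR-290 cluster (miR-290 mimics), and the second with an siRNA against Renilla luciferase (control siRNA). Both were analysed undifferentiated, 24 h after they were transfected. All 6 arrays thus come from 1 Dicer-deficient line that had received a small RNA duplex, and no untransfected cells and no cells with Dicer are among them. The labels do not say whether replicates were separate cultures, so the spread behind each p-value is that of these samples and may be technical.

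MicroRNAs act as the guide strand of an Argonaute protein, which they bring to messenger RNAs that pair with the seed, the bases near the 5′ end of the guide. Argonaute binds a GW182 protein, which in turn recruits the CCR4-NOT and PAN2-PAN3 deadenylases, and the shortened messenger is decapped and degraded or is held untranslated. Synthetic duplexes enter Argonaute without Dicer, so the same machinery serves the mimics and the control siRNA. Embryonic stem cells with Dicer make the miR-290 cluster in abundance.

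The guide strands are shown because the seed is the part that Argonaute presents to its targets. The labels name the cluster and not the single mimics, so the 3p arms of the cluster in RefSeq (GRCm38.p6, within chr7:3218674-3220837, plus strand) are given 5′ to 3′, with bases 2 to 8, the seed, in capitals.
miR-291a-3p: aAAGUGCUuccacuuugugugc
miR-294-3p: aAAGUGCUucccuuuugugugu
miR-295-3p: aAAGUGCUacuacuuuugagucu
miR-290a-3p: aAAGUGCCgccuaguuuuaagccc
miR-291b-3p: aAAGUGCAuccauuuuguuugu
miR-293-3p: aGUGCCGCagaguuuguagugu
These 6 arms hold 4 seeds, and 3 of them (miR-291a-3p, miR-294-3p and miR-295-3p) share AAGUGCU. The letters AGUGC begin at base 3 in 5 of the arms and at base 1 in miR-293-3p. Another member of the cluster is miR-292a-3p.

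The arrays were alike in overall signal, with median intensities of 44.1 to 44.8 with the mimics and 41.7 to 44.9 with the control siRNA. The 8 embryonic stem cell markers (Pou5f1, Nanog, Sox2, Zfp42, Klf4, Esrrb, Dppa5a and Utf1) were all tested and 0 changed in limma at an adjusted p under 0.05, although 2 were higher with the level-dependent robust prior described below. Their summed intensity was 103664 to 109908 with the mimics and 97075 to 105442 with the control siRNA. The 8 feeder fibroblast markers summed to 417 to 525 with the mimics and 538 to 570 with the control siRNA, groups that do not overlap. Of these, 3 collagen genes (Col1a1, Col1a2, Col3a1) were too dim to be tested, and 0 of the other 5 passed, although S100a4 was lower with that prior (−1.29). Dcn and Lum were also below 0 (−0.90 and −1.22), whereas Pdgfrb and Thy1 were above 0 (0.43 and 0.10). The 5 endoderm markers summed to 180 to 215 with the mimics and 119 to 192 with the control siRNA, and 0 passed. The 4 neural ectoderm markers summed to 1532 to 1809 with the mimics and 1345 to 1510 with the control siRNA, again without overlap. Of these Sox1 fell (log2 fold change −0.95, limma adjusted p = 0.0458, and 0.0569 with that prior) and Tubb3 rose (0.62, limma adjusted p = 0.0491, and 0.001 with that prior). Nes gave −1.94 (0.11 on its other tested probe set) and Pax6 0.08 (−1.19 to 0.13 on its others). The brightest probe sets of Nes and Pax6 passed under neither prior. Whether small changes in such cells enter the results below was not tested. Dicer1 itself, whose probe set may not cover the deletion and so checks nothing, gave 1026, 1143 and 1090.4 with the mimics and 1129, 1177 and 1137 with the control siRNA.

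Ago1 was the effector gene that fell in the cells given miR-290 mimics. The probe set 1434331_at, the only one for Ago1, gave intensities of 2154, 2059 and 1995 with the mimics and 2942, 3095 and 3188 with the control siRNA. All 3 mimic arrays lay below all 3 control arrays, and the gap between the groups was wider than the spread within either. The means were 2069 ± 79.8 and 3075 ± 124 (SD, n = 3 each), a ratio of 0.673 of mimics over control (limma log2 fold change −0.57 ± 0.07 SE, 95% interval −0.76 to −0.38, adjusted p = 0.0457). In such bulk samples fewer cells that make a transcript and less of it per cell cannot be told apart. The call is close to its threshold. It was lost without any 1 of the 6 arrays (limma adjusted p = 0.138 to 0.151), whereas with a prior variance fitted as a function of signal level, estimated robustly (the level-dependent robust prior), the limma adjusted p was 0.000159, and 0.000678 to 0.00151 without any 1 array.

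Of the 28 tested probe sets of the effector genes, 1 fell and 0 rose at a limma adjusted p under 0.05. Over all 29167 tested probe sets 0.946% fell and 0.343% rose. With the level-dependent robust prior 4 of the 28 were lower, 1 for Ago1, 2 for Tnrc6a and 1 for Mov10, and 0 were higher, against 6.56% lower and 4.73% higher over all tested probe sets. At an unadjusted p under 0.05 in limma, 8 of the 28 were lower and 0 higher, against 11.6% and 8.49% of all. Probe sets of 1 gene read the same transcripts and are not independent of each other, so these counts describe 9 genes rather than 28.

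The tested probe sets leaned to lower values by small amounts. The log2 fold change was below 0 in 23 of the 28, and their median was −0.17, beside 50.7% below 0 and a median of −0.01 over all tested probe sets. By their brightest probe sets 7 of the 9 genes were below 0, with a median of −0.19, beside 52.0% and −0.01 over all genes. All mimic arrays lay below all control arrays in 10 of the 28, where 15.5% of all tested probe sets did so, and above them in 1, where 13.8% did so. The 10 were 3 of Tnrc6a, 2 of Tnrc6b, 2 of Tnrc6c and 1 each of Ago1, Ago2 and Mov10, and the 1 higher was of Ddx6.

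**Figure D1:**
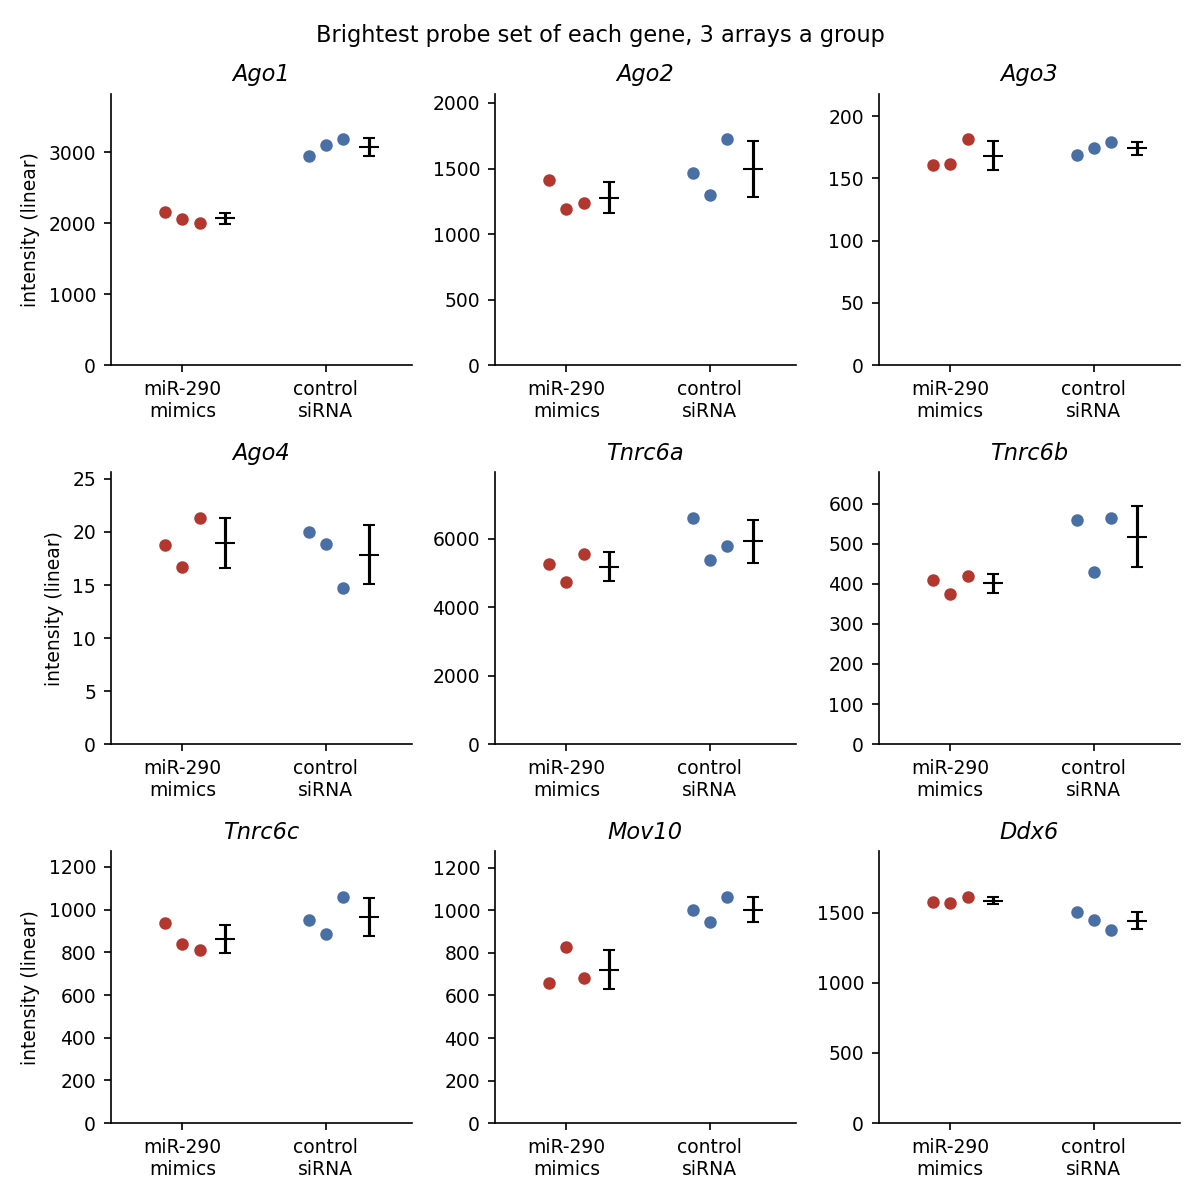
Linear intensity of the brightest probe set of each of the 9 measured genes, with a panel per gene, 1 point per array (3 with miR-290 mimics, left, and 3 with control siRNA, right) and the mean with its SD as a bar beside the points. Scales differ between panels and heights are not comparable between genes. The groups stand apart for Ago1, Tnrc6b, Mov10 and Ddx6 and overlap for the other 5.

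The other Argonautes gave no call. Ago2, the mammalian Argonaute that cleaves fully paired targets, had 1409, 1191 and 1234 with the mimics and 1468, 1298 and 1727 with the control siRNA on its brightest probe set. The groups overlap, and the log2 fold change was −0.22 (95% interval −0.57 to 0.12, limma adjusted p = 0.429). Its 3 other probe sets gave −0.23, −0.08 and −0.03. The groups did not overlap on the one at −0.23, with 478, 472 and 479 with the mimics and 545.5, 531 and 608 with the control siRNA (limma adjusted p = 0.204). The lower end of the interval of the brightest Ago2 probe set, −0.57, is as low as the value of Ago1.

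Ago3 and Ago4 also carry microRNAs, and both genes lie beside Ago1 on chromosome 4, in the order Ago3, Ago1, Ago4 with 0 protein-coding genes starting between them in the GRCm38.p6 annotation. Ago3 had 161, 162 and 182 with the mimics and 169, 174 and 179 with the control siRNA, with overlapping groups (log2 fold change −0.05, 95% interval −0.26 to 0.16, limma adjusted p = 0.772). Its 2 other tested probe sets, both dimmer, gave −0.33 and −0.15 and did not pass, and 2 more were below the filter. Ago4 was near the floor of the array, at 18.8, 16.7 and 21.3 with the mimics and 20.0, 18.9 and 14.7 with the control siRNA, so little can be read from it (log2 fold change 0.09, 95% interval −0.31 to 0.50). A second Ago4 probe set, below the filter and not tested, was at 0.906, 3.63 and 1.98 with the mimics and 15.2, 11.1 and 12.2 with the control siRNA, values that cannot be told from background.

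The change of Ago1 was set against those of its relatives within each array. The log2 fold change of Ago1 minus that of Ago2 was −0.35 ± 0.12 (SE, n = 3 each), minus that of Ago3 −0.52 ± 0.09 and minus that of Ago4 −0.66 ± 0.20. In each of the 3 comparisons the arrays of the groups did not overlap, and the 2-sided exact permutation p was 0.1 (0.1 also after Benjamini-Hochberg adjustment over the 3), which is the smallest that this test allows with 3 arrays against 3, so it could not pass a threshold of 0.05. Ago1 was the Argonaute called in these same arrays, so its choice for these comparisons favours differences below 0. The values of Ago4 are near the floor of the array, and little can be read from its difference.

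The GW182 genes gave log2 fold changes below 0 on all but 2 of their tested probe sets, and 0 passed the main test. Their proteins bind Argonaute through glycine-tryptophan repeats and link it to the deadenylases. Tnrc6a had 5252, 4739 and 5562 with the mimics and 6607, 5365 and 5787 with the control siRNA on its brightest probe set, and the groups overlap (log2 fold change −0.19, 95% interval −0.48 to 0.10, limma adjusted p = 0.423). The clearest of its 8 tested probe sets, 1434899_s_at, had 3630, 3732 and 3737 with the mimics and 4752, 4769 and 4551 with the control siRNA. There the 2 groups stand apart, with a log2 fold change of −0.34 ± 0.07 SE (95% interval −0.51 to −0.17, limma adjusted p = 0.0774).

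With the level-dependent robust prior that Tnrc6a probe set passed (limma adjusted p = 0.00134), also without any 1 array, with 0.0107 as the highest value. A second one, 1455128_x_at, passed with all arrays (−0.22, limma adjusted p = 0.0488) but not without any 1 of the 6, where it was 0.0731 to 0.163. The letters s and x in these names mark probe sets whose probes can match more than 1 transcript or sequence. The 6 brightest Tnrc6a probe sets ranged from −0.34 to −0.12, and the 2 dimmest tested ones gave 0.07 and 1.06, the last with a 95% interval of −0.91 to 3.04.

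Tnrc6b had 410, 375 and 419 with the mimics and 559.5, 429 and 565 with the control siRNA, so the highest mimic array lay just under the lowest control array. Its log2 fold change was −0.36 (95% interval −0.70 to −0.01, limma adjusted p = 0.234). A second Tnrc6b probe set gave 232, 211 and 236 with the mimics and 299.8, 319 and 289 with the control siRNA, a wider gap (−0.42 ± 0.08 SE, limma adjusted p = 0.0818, and 0.0508 with the level-dependent robust prior). The third gave −0.30 with overlapping groups. The 3 probe sets gave the same sign, with 0 calls under either prior.

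Tnrc6c had 937, 839.7 and 809.97 with the mimics and 952, 884 and 1059.99 with the control siRNA, overlapping groups with a log2 fold change of −0.16 (95% interval −0.43 to 0.11, limma adjusted p = 0.456). Its 2 other probe sets gave −0.17 and −0.19, each without overlap and neither past the test (limma adjusted p = 0.358 and 0.361).

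**Figure D2:**
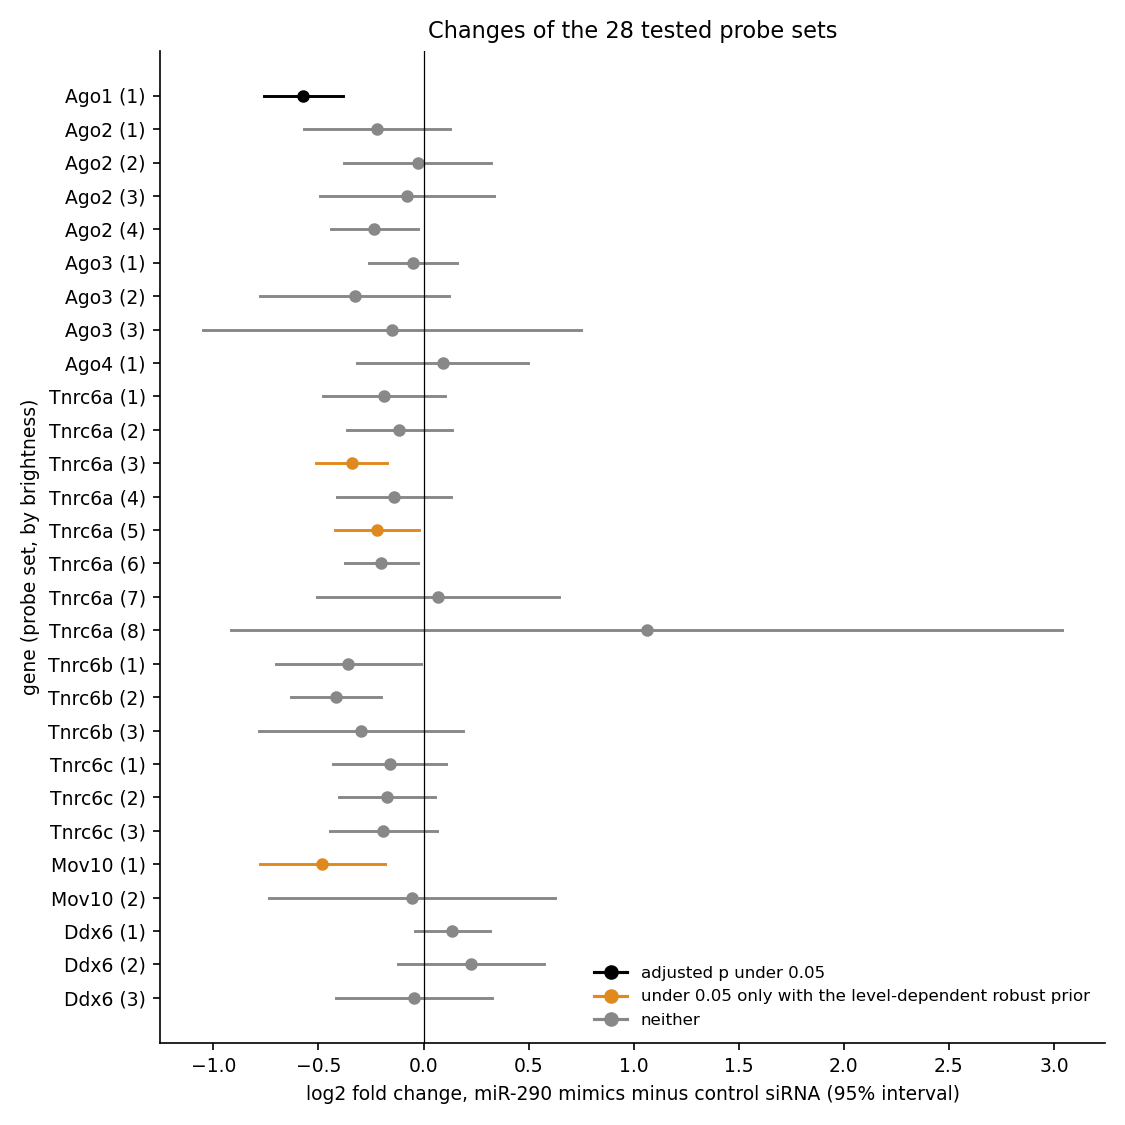
Log2 fold change (miR-290 mimics minus control siRNA) with its 95% interval from limma for each of the 28 tested probe sets, numbered by brightness within each gene. The Ago1 probe set at −0.57 is the 1 call; 2 of Tnrc6a (−0.34 and −0.22) and 1 of Mov10 (−0.48) pass with the level-dependent robust prior alone, and the Ddx6 probe sets lie between −0.04 and 0.22.

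The 2 helicases gave log2 fold changes of opposite sign on their brightest probe sets. Mov10, a helicase that binds Argonaute and is also known as an antiviral factor, had 657, 828 and 679.6 with the mimics and 1001, 945 and 1063 with the control siRNA. All mimic arrays lay below the control arrays, with mimic replicate 2 the nearest to them, at a log2 fold change of −0.48 ± 0.12 SE (95% interval −0.78 to −0.18, limma adjusted p = 0.113). It did not pass the main test but did with the level-dependent robust prior (limma adjusted p = 0.00899), and without any 1 array under that prior (0.00365 to 0.0443). Its dim second probe set gave −0.06 with overlapping groups.

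Ddx6, which binds CCR4-NOT and represses translation and promotes decapping, had 1575, 1569.98 and 1613 with the mimics and 1501, 1447 and 1378 with the control siRNA. The mimic arrays all lay above the control arrays, by a log2 fold change of 0.14 (95% interval −0.04 to 0.32, limma adjusted p = 0.354). Its 2 other tested probe sets gave 0.22 and −0.04 with overlapping groups. An increase of more than 1.25-fold lies outside the interval of the brightest probe set.

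Some interferon-inducible genes fell in the same arrays. Of 13 interferon response genes, a list put together with their earlier results known, 11 were tested, 4 fell and 0 rose, where 1.38% of all 13815 genes fell and 0.456% rose by their brightest probe sets. The 4 were Rtp4, Psmb8, an immunoproteasome subunit (log2 fold change −2.45), Gbp7, a guanylate-binding protein (−2.06), and Irf9, a transcription factor of the response (−1.38), with limma adjusted p-values of 0.034, 0.039, 0.0487 and 0.0277. Rtp4 had 18.6, 14.4 and 8.63 with the mimics, near the floor of the array, and 132, 104 and 113 with the control siRNA, so it entered the test through the control arrays and the size of its fall is not given. The summed intensity of the list was 2906 to 3395 with the mimics and 4247 to 4555 with the control siRNA, and the median log2 fold change was −0.97. The other 7 did not pass the main test. Oas1a, the brightest, gave −0.10, Irf7 −0.11, Stat2 0.06 and Ifit3 0.23. Eif2ak2 gave −0.41, Cxcl10 −0.97 and Ifit1 −1.33. Of these 7, Ifit1 and Cxcl10 were lower with the level-dependent robust prior (limma adjusted p = 0.00219 and 0.0196). They kept this in 6 and 4 of the 6 fits without 1 array. Under that prior 6 of the 11 were lower and 0 higher, where 9.43% of all genes were lower and 6.2% higher. Without any 1 array 0 of the list passed the main test in limma, with adjusted p-values of 0.0991 to 0.152 for Rtp4, Psmb8, Gbp7 and Irf9. Those 4 all passed under the level-dependent robust prior without any 1 array. The part of this list in the values of Mov10 was not tested.

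Downstream of the GW182 proteins, Cnot6, a catalytic deadenylase subunit of CCR4-NOT, fell. Its brightest probe set, 1426682_at, had 3093, 2728 and 3081 with the mimics and 5046, 4879 and 5675 with the control siRNA. The groups are far apart, at 2967 ± 207 and 5199.97 ± 419 (SD, n = 3 each), with a limma adjusted p of 0.0444 for a log2 fold change of −0.81 ± 0.10 SE. A second Cnot6 probe set also fell (−0.78, limma adjusted p = 0.0492). The other 2 gave −0.71 and −0.26 and did not pass the main test. With the level-dependent robust prior they passed (limma adjusted p = 0.00133 and 0.0332). The call of the brightest was lost in limma without any 1 array (adjusted p = 0.129 to 0.15). That probe set passed under the level-dependent robust prior without any 1 array (limma adjusted p = 0.000119 to 0.000576).

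Of 14 deadenylation genes, all tested, 1 fell (Cnot6) and 0 rose, where 1.38% of all genes fell and 0.456% rose. The median log2 fold change was −0.06, beside −0.01 over all genes. The brightest, Cnot11 and Cnot7, gave −0.12 and −0.06 and did not pass. The 2 dimmer Cnot11 probe sets had the opposite sign (0.48 and 0.88) and passed with the level-dependent robust prior (limma adjusted p = 0.0378 and 0.0275), not in the main test. With the level-dependent robust prior 4 were lower and 0 higher by their brightest probe sets, where 9.43% of all genes were lower and 6.2% higher. The 3 added by that prior, named after their values were seen, were Cnot6l (−0.39), the close relative of Cnot6, Pan3 (−0.42), the adaptor subunit of PAN2-PAN3, and Tob1 (−0.84), which links deadenylases to poly(A)-binding protein. Each of them kept an adjusted p under 0.05 under that prior without any 1 array.

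Array by array, Cnot6l had 964, 1088 and 1027 with the mimics and 1273, 1343 and 1417 with the control siRNA. Pan3 had 676, 625 and 666 with the mimics and 876, 818 and 931 with the control siRNA. Tob1 had 1435, 1211 and 1727 with the mimics and 2769.88, 2128 and 2914 with the control siRNA. In all 3 genes the groups stand apart, with the widest spread in Tob1. The other probe sets of Cnot6l gave −0.47, −0.37 and −0.18 and those of Pan3 −0.53, −0.65 and −0.03, and 0 of these passed the main test, whereas Pan2, the catalytic partner of Pan3, gave 0.34 (limma adjusted p = 0.305).

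**Figure D3:**
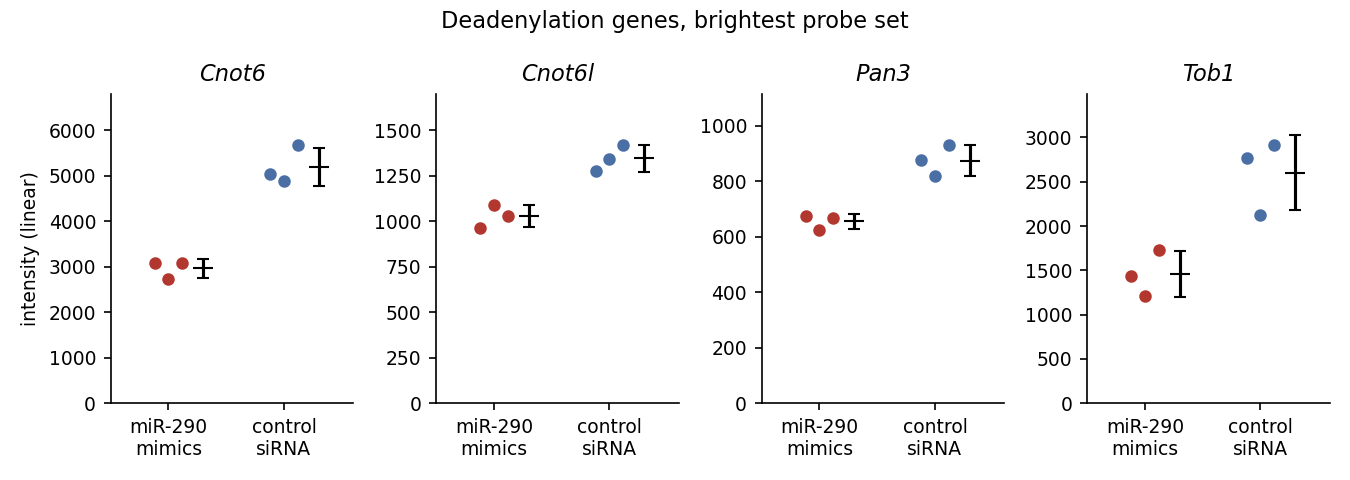
Linear intensity of Cnot6, Cnot6l, Pan3 and Tob1 on their brightest probe sets, 1 point per array (3 with miR-290 mimics, left, and 3 with control siRNA, right), with the mean and its SD as a bar. In each panel the 3 mimic arrays lie below the 3 control arrays; Cnot6 passed the main test and the other 3 passed with the level-dependent robust prior alone.

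Other steps of the pathway gave 0 calls in the main test. Of 17 decapping and decay genes 16 were tested, and with the level-dependent robust prior 3 were higher, Lsm6 (0.41), Lsm4 (0.30) and Lsm2 (0.23), and 1 was lower, Lsm14b (−0.29), beside 6.2% higher and 9.43% lower over all genes under that prior. The 3 higher ones encode subunits of Sm-like rings, which serve in decay and in splicing. The calls of Lsm2 and Lsm14b were lost under that prior without some of the arrays and passed in 2 and 3 of the 6 such fits. The median of the list was 0.09, and the brightest member, Lsm3, gave 0.04.

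Of 10 genes of poly(A) binding and cap-dependent translation, all tested, 2 were higher with the level-dependent robust prior, Pabpc4 (0.44) and Paip2 (0.32), and 1 was lower, Paip1 (−0.43), beside the same 6.2% and 9.43% of all genes. Pabpc4 is a poly(A)-binding protein, and Paip1 and Paip2 bind such proteins and favour or hinder translation. The brightest members, Eif4a1 and Pabpc1, gave 0.01 and 0.10 and passed under neither prior.

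Of 14 genes of processing and loading, 12 were tested, and Tarbp2, a double-stranded RNA-binding partner of Dicer, was higher with the level-dependent robust prior (0.39, against −0.29 on a second probe set), 1 of the 12 where 6.2% of all genes were higher. Hspa8 and Hsp90aa1, chaperones that help to load Argonaute, both gave 0.01. Of 18 regulators that associate with Argonaute, 15 were tested, and Elavl1 (−0.23) and Pum2 (−0.24), both binders of 3′ untranslated regions, were lower with that prior, each in 2 of the 6 fits without 1 array. That is 2 of the 15, where 9.43% of all genes were lower. The brightest of them, Ajuba and Tsn, gave 0.03 and 0.13 and did not pass.

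The PIWI clade, the germline branch of the Argonaute family, gave 0 calls in the main test and 1 with the level-dependent robust prior. Piwil1 had 89.99, 82.6 and 61.2 with the mimics and 23.7, 45.3 and 34.5 with the control siRNA, without overlap (1.21 ± 0.28 SE on the log2 scale, with a limma adjusted p of 0.106, and 0.0409 with the level-dependent robust prior, which it kept in 1 of the 6 fits without 1 array). Piwil2 had 443, 304 and 338 with the mimics and 264, 297 and 327 with the control siRNA, overlapping groups with a log2 fold change of 0.28, and Piwil4 gave 0.57, and neither passed under either prior.

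**Figure D4:**
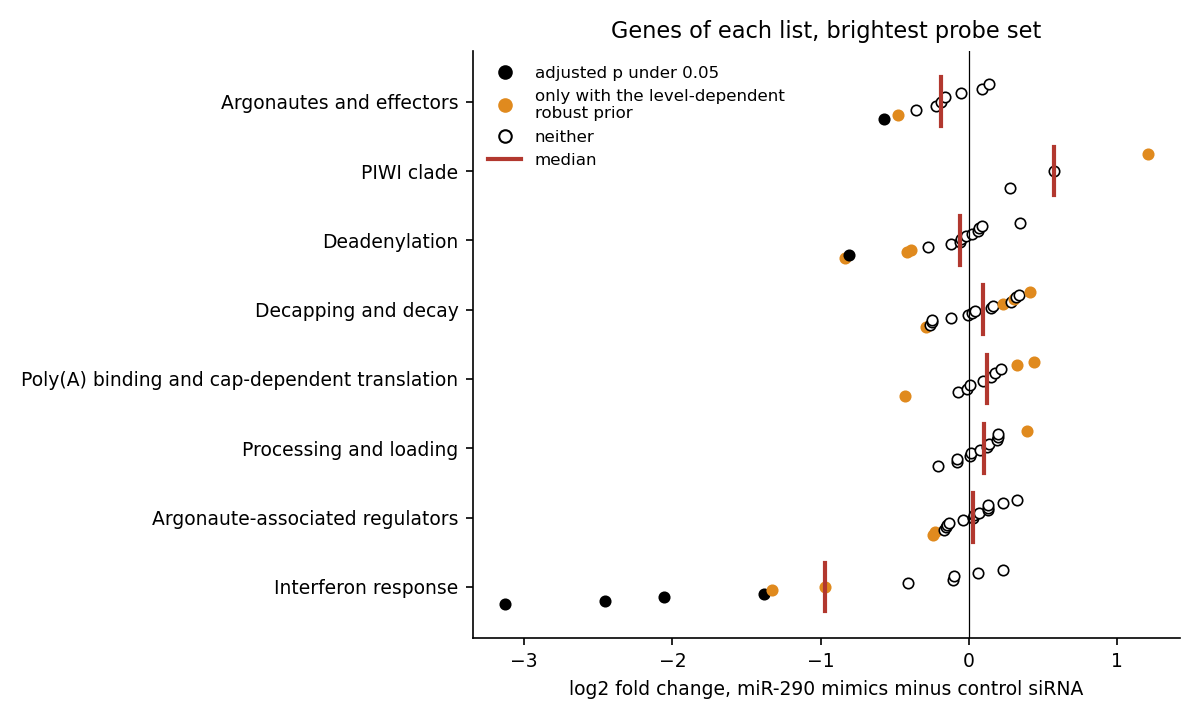
Log2 fold change (miR-290 mimics minus control siRNA) of the brightest probe set of each tested gene, by list, with the median of each list as a bar. Black points passed the main test, orange ones the level-dependent robust prior alone; Ago1 and Cnot6 are the black points outside the interferon response list.

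The 6 arrays were also searched for the genes whose pattern is most like that of Ago1. The candidates were 7805 other genes with a single symbol and a mean log2 intensity of at least 8. The highest Pearson correlations with Ago1 on the log2 scale over the 6 arrays were those of Cdk19, a Mediator kinase (r = 0.998), Kank2 (0.997), Tcf7l2, a transcription factor of Wnt signalling (0.997), Ap2b1, a clathrin adaptor subunit (0.997), and Tollip (0.997). Their log2 fold changes were −0.51, −0.51, −0.62, −0.48 and −0.41. As many as 1002 genes correlated with Ago1 at 0.9 or more, and all these values rest on the same 6 arrays in 2 groups.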

How the data were processed

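The authors deposited 1 linear intensity per probe set and array, from total RNA copied to biotinylated cRNA for Affymetrix arrays, per the labels. The submitters' processing notes name GCRMA, but the values are not on a log2 scale, and each array has the same trimmed mean of 500.0 when 2% is cut from either end, a global scaling. Which software made them is not given in the sources used here, and detection calls were not used here. The deposited intensities (0.057 to 46765) were log2-transformed with no offset and not normalized again. Groups and replicate numbers came from the sample titles, and all samples carry 1 analysis date. Precision is limited by how few arrays there are.

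Control probe sets (64) and 15870 probe sets with a mean log2 under 4 were left out. The remaining 29167 went into limma 3.58.1 (lmFit, then eBayes; R 4.3.3; constant prior variance, 2-sided, 6 arrays, no covariates), with Benjamini-Hochberg adjustment over all of them and a threshold of 0.05. The code was tested on simulated arrays. Symbols came from the platform annotation (34958 probe sets with 1 symbol, 932 with several, 9211 not listed); 34754 matched GRCm38.p6 identifiers and 0 changed. The brightest probe set by mean log2 stood for a gene. The rule named every effector gene with each probe set, Dicer1, in each list up to 4 called genes or the 2 brightest, and the 5 genes most correlated with Ago1. Alternatives were a level-dependent robust prior, median centring, quantile normalization, filters, an offset of 16, a replicate block, averaging the probe sets of a gene and leaving out each array. The members, lists and alternatives were chosen with earlier results of these data known. Leaving out arrays under the level-dependent robust prior was added after seeing the data.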

Additional observations from a re-analysis of the deposited data

How the results depend on the processing

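The count of changed probe sets depended on the settings. Over all probe sets the main test in limma gave 276 lower and 100 higher. It gave 1914 and 1379 with the level-dependent robust prior, 103 and 50 with median centring, and 218 and 105 with quantile normalization. A filter at a mean log2 of 6 gave 1522 and 851, one at 8 gave 1800 and 1200, and the offset of 16 gave 442 and 186. The counts were 0 and 0 with no filter (5645 at an unadjusted p under 0.05) and with the replicate block (5189). Leaving out 1 array gave 0 lower and 0 to 1 higher (4612 to 5205 unadjusted), and under the level-dependent robust prior 1186 to 1600 lower and 730 to 1244 higher.

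Among the 28 tested effector probe sets, 1 was lower in the main test, 4 with the level-dependent robust prior, and 0 with median centring and the replicate block. Other filters tested other numbers of them. At 6, 4 of 24 were lower, beside 1522 of all 19503 tested, and at 8, 7 of 21, beside 1800 of all 12869. With no filter 0 of 33 were lower, beside 0 of all 45037. At an unadjusted p under 0.05 in limma, 5 effector probe sets were lower with median centring, 5 with the block and 6 with no filter. The number called lower was 0 without any 1 array, and 3 to 4 without any 1 array under the level-dependent robust prior. None of these settings called an effector probe set higher. Ago1 kept its direction throughout, from −0.52 to −0.60, but lost its call with median centring (limma adjusted p = 0.066), no filter (0.17) and the replicate block (0.208). Its call stayed, near the threshold, with quantile normalization (limma adjusted p = 0.0472) and the offset of 16 (0.0355). The 1 sign change was that of Ago4, whose values are near the floor: leaving out 1 array gave −0.043 (without control replicate 3, under either prior) to 0.178. With a single array left out the main test loses residual degrees of freedom; whether that alone ends its calls was not tested.

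Of the lists, the deadenylation genes had 1 lower in the main test, 4 with either stricter filter and 0 with median centring, no filter, the replicate block or any 1 array left out; the interferon response genes had 4, 6 with the level-dependent robust prior or the filter at 6, and 0 with no filter, the block or any 1 array left out (the filter at 8 leaves out all 4).

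Whether the replicate numbers pair the samples could not be told. Deviations from the group means correlated at −0.12, 0.21 and 0.23 for numbers 1, 2 and 3 (probe sets with a mean log2 of at least 8). Between mimic and control arrays of unlike numbers the correlations ran from −0.31 to 0.12. The values for numbers 2 and 3 lay above this range and that for number 1 within it. Deviations sum to 0 within each group, so these correlations are tied to each other and cannot decide the question. The block fit, which gave 0 calls, is therefore kept as a limit of the results above.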
